A study of Mus musculus with 2 samples.

Results

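Integrins are the receptors with which cells hold on to their surroundings, and laminins are the matrix proteins that many of them hold. Transcripts of both families were counted in iBAT, the interscapular depot of brown fat, whose cells burn fuel for heat, from untreated C57BL/6N (Bl6N) mice aged 20 days. The members were the genes whose symbol is that of an integrin alpha, integrin beta, laminin alpha, laminin beta or laminin gamma subunit, which gave 37 of the 27179 genes in the tables, 26 integrin and 11 laminin genes. One library came from wild-type mice and 1 from mice labelled as knockout for uncoupling protein 1 (Ucp1-KO), each from tissue of 3 pooled animals. The animals are described as male, which the sex-linked counts given below do not match. With 1 library per genotype there is no replicate, so every difference below is one between these 2 libraries, and each interval is a 95% counting interval that holds no spread between animals.

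An integrin is a pair of 1 alpha and 1 beta chain that spans the cell membrane and links the outside to the actin cytoskeleton. The pair sets the ligand: alpha chains that join the beta2 chain are found on leukocytes and bind other cells and complement, while most chains that join beta1 bind matrix, some laminin, some collagen and some proteins with the short motif RGD. A laminin is a cross-shaped trimer of 1 alpha, 1 beta and 1 gamma chain, and it forms the sheet of basement membrane that wraps each adipocyte, blood vessel, nerve and muscle fibre.

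The libraries held 52950913 counts (wild-type) and 53216727 counts (Ucp1-KO). Ucp1 itself had 366473 and 37853 counts, which gave a log2 ratio (Ucp1-KO over wild-type) of -2.98, so the transcript was scarcer under the Ucp1-KO label without being at 0. Brown adipocyte markers were abundant in both, with a sum over 8 genes of 10228 and 10194 CPM. CPM is counts scaled to the library total and so lies on the total-count scale. Fabp4 alone supplied 7315 and 6584 CPM of that sum. The median log2 ratio of the 8 markers was 0.53 (0.22 with total counts). Of the 8, 6 were higher and 1 lower beyond counting error, with Ppargc1a (1.89) and Prdm16 (1.39) furthest from 0. The pools also differed in ways the genotype label does not name. Of genes on the Y chromosome, Kdm5d, Uty, Eif2s3y and Ddx3y had 0 counts in wild-type, beside 570, 798, 491 and 3446 in Ucp1-KO. Xist, made from the inactive X chromosome, had 32380 and 16478. The wild-type library thus held Xist without these Y-linked transcripts, and the Ucp1-KO library held both. Neither matched the description of the animals as male. All 12 markers of skeletal muscle fibres had a log2 ratio below -2. Sex-linked transcripts, muscle transcripts and genotype cannot be told apart in these libraries, nor can fewer cells of a type and less RNA per cell.

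Of the 37 members, 35 had a mean normalised count of at least 10 and were examined. The log2 ratio is taken on counts scaled by median-of-ratios size factors with 0.5 added, and a gene was said to differ by size at a log2 ratio of at least 1, which is 2-fold. By that rule 6 members were higher in Ucp1-KO, 17.1% of those examined, against 7.42% of all 15212 genes examined. Lower members numbered 5, or 14.3%, against 9.55% of all genes. The higher members were Itgam, Itgax, Itgal, Itga3, Itga2 and Itgb8, and the lower ones Itga9, Itga11, Itgb6, Lama3 and Lamc3. Itga2 and Itgb8 reached the minimum mean only through the Ucp1-KO library, with 1.80 and 0 normalised counts in wild-type. Itgb6 reached it only through wild-type, with 6.66 in Ucp1-KO. The minimum itself favours such calls, among all genes too. A counting interval that lay wholly above 0 was found for 13 members (37.1%), against 31.5% of all genes, and one wholly below 0 for 11 (31.4%), against 30.5%. The median log2 ratio over the 35 members was 0.061, beside -0.0016 over all genes examined, so the family as a whole sat at the centre of the transcriptome and its members went both ways. Scaling to total counts shifted the median of all genes by -0.31 and left 4 members at least 2-fold higher and 6 lower, against 4.80% and 15.2% of all genes. On that scale 8 members were higher and 19 lower beyond counting error, against 14.4% and 53.9% of all genes, so the balance of 13 to 11 rests on the scaling.

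**Figure D1:**
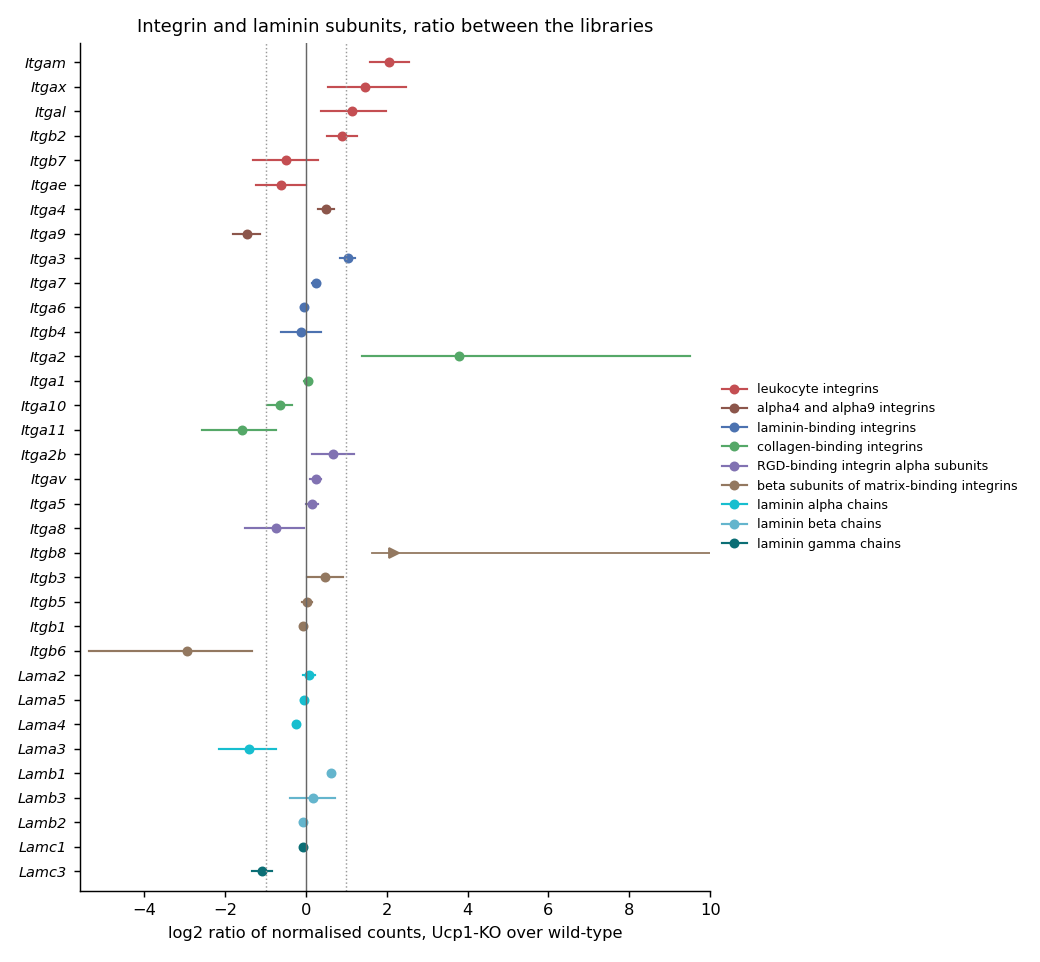
Log2 ratio of normalised counts, Ucp1-KO over wild-type, for 34 of the members examined, grouped by ligand or chain. Points are the values, lines the 95% counting intervals, the solid vertical line the median of all genes and the dotted lines a 2-fold difference; the arrow for Itgb8, which had 0 counts in wild-type, stands at its lower bound. The alpha chains Itgam, Itgax and Itgal lie beyond 2-fold, and the abundant laminin chains lie near 0 except Lamb1.

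The leukocyte integrins were compared with the matrix-binding ones. Of the 7 leukocyte subunits 6 were examined, with a median log2 ratio of 1.02, while the 17 matrix-binding subunits had a median of 0.061. The medians were 0.96 apart, with a counting range of 0.20 to 2.03, and between 0.84 and 1.16 apart under the alternatives that were run. Other size factors shift both medians nearly alike, and dropping the count minimum added no gene with a count. Those alternatives (all 0.96) could therefore hardly move the difference. The leukocyte group was then divided by beta chain, a split made after the values were seen. The 4 measured subunits of the beta2 family were all higher in Ucp1-KO, whereas the beta7 chain and its partner alphaE were not.

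Itgam encodes alphaM (CD11b), which with beta2 forms complement receptor 3 of macrophages, monocytes and neutrophils. It had 96 wild-type counts (70.8 to 127) and 323 in Ucp1-KO (275 to 377), a 4.12-fold higher level, with a log2 ratio of 2.04 (1.58 to 2.55). This was the only leukocyte integrin whose interval lay wholly beyond 2-fold. Itgax encodes alphaX (CD11c), known from dendritic cells and from macrophages of fat tissue. Its counts were 29 and 66, for a log2 ratio of 1.47 (0.56 to 2.49). Itgal, the alphaL chain (CD11a) with which lymphocytes and other leukocytes bind ICAM proteins, had 43 and 78 counts, for a log2 ratio of 1.15 (0.36 to 1.99), which with total counts was 0.84 and short of 2-fold. Their shared partner Itgb2 (CD18) had 215 and 324 counts, for a log2 ratio of 0.89 (0.53 to 1.26), higher beyond counting error but short of 2-fold. Itgad, the alphaD chain, was listed at 0 in both libraries, which allows up to 0.113 CPM in either.

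These 4 alpha chain genes lie on the plus strand of chromosome 7 in GRCm39. Itgal runs from 126895432 to 126934320, Itgam from 127661808 to 127717753, Itgax from 127728668 to 127749829 and Itgad from 127753548 to 127822988, so the last 3 follow one another. They are related genes, and reads that match more than 1 of them could not be separated here. In the annotation 67.4% of the Itgam exon length is also exon of Gm49368 on the same strand, a gene that the tables do not list.

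The promoters of Itgam and Itgax are shown, the leukocyte integrins at least 2-fold higher that had a matched window. They are RefSeq windows on GRCm38.p6, another build than the one above, 250 bases before to 50 after the start on the plus strand, at chr7:128062390-128062689 and chr7:128129300-128129599. Capitals mark the core GAGGAA, or TTCCTC on the other strand, of the sites that PU.1 is known to bind. PU.1 (Spi1) is a transcription factor of myeloid and B cells, and other ETS factors bind overlapping motifs. Spi1 itself had 82 and 95 counts, for a log2 ratio of 0.51 (-0.12 to 1.15), not beyond counting error.
Itgam: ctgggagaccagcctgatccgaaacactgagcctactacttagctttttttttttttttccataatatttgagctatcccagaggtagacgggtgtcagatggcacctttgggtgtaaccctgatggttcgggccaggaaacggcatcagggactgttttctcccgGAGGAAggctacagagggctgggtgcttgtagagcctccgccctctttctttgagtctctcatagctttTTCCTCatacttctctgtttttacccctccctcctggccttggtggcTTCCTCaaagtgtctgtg
Itgax: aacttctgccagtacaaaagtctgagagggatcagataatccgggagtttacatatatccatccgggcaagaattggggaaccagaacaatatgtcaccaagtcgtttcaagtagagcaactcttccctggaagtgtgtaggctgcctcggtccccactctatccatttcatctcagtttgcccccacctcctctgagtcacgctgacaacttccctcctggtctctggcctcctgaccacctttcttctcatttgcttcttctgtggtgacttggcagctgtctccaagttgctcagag
The core stands 3 times in the Itgam window and 0 times in that of Itgax. Among the matrix-binding members at least 2-fold higher, not shown, Itga2 and Itgb8 held 0 cores and Itga3 held 1. Windows for 23 members were matched, and of their 26 promoters 14 (53.8%) held the core, against 28.3% of all 32851 promoters of the same length. No leukocyte integrin other than Itgam, Itgax and Itgb7 was matched, and Itgb7 held 1 core. By group the core stood in 2 of 3 promoters of leukocyte integrins and 3 of 4 of RGD-binding alpha subunits. For laminin chains it stood in 2 of 2 alpha and 3 of 4 beta promoters. Beta subunits of matrix-binding integrins had it in 2 of 5 and collagen-binding integrins in 1 of 4. Laminin-binding integrins had it in 1 of 2, and alpha4 and alpha9 in 0 of 2. The share over members was thus not one of leukocyte integrins alone.

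AlphaE (Itgae) pairs with beta7 (Itgb7), and the pair holds lymphocytes of epithelia through E-cadherin. Itgae had 137 wild-type counts and 73 in Ucp1-KO, for a log2 ratio of -0.61 (-1.23 to -0.0087), at the edge of counting error. Itgb7 had 78 and 45 counts, for a log2 ratio of -0.49 (-1.31 to 0.29), not beyond it. Both point estimates lay on the other side of 0 from those of the beta2 family. E-cadherin (Cdh1) had 0 and 4 counts.

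**Figure D2:**
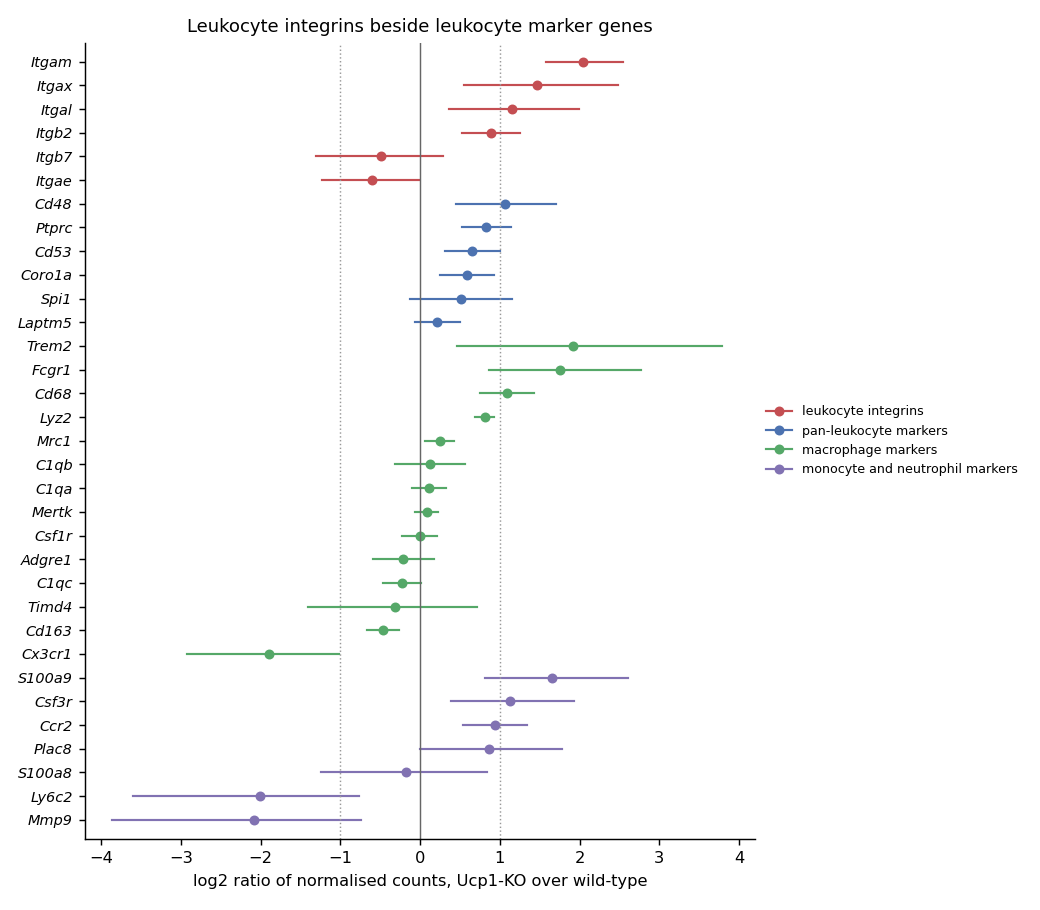
Log2 ratio of normalised counts, Ucp1-KO over wild-type, for the leukocyte integrins and for marker genes of leukocytes in general, of macrophages and of monocytes and neutrophils, with 95% counting intervals as lines. The solid vertical line is the median of all genes and the dotted lines a 2-fold difference. All pan-leukocyte markers lie above 0, between 0.22 and 1.06, and Itgam lies above each of them, while the macrophage markers spread to both sides.

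Marker genes of blood-borne cells were set beside these values. For these and the later marker lists, 31.5% of all genes were higher and 30.5% lower beyond counting error. All 6 pan-leukocyte markers had a log2 ratio above 0, 4 of them beyond counting error, and their summed level was 27.0 CPM in wild-type and 32.6 CPM in Ucp1-KO. Ptprc (CD45), on the surface of all leukocytes, had 311 and 450 counts, for a log2 ratio of 0.83 (0.53 to 1.14), close to that of Itgb2. Itgam differed from Ptprc by 1.21 on the log2 scale, with intervals that did not overlap. The 14 macrophage markers had a median of 0.096, or -0.21 with total counts, with 5 higher and 2 lower beyond counting error and a sum of 168 and 161 CPM. The largest differences among them went opposite ways, Trem2 (10 and 32 counts, 1.92) being higher and Cx3cr1 (116 and 25 counts, -1.90) lower. Fcgr1 (28 and 78 counts, 1.76) was also higher, while Adgre1 (285 and 200 counts, -0.21) and Csf1r (758 and 613 counts, -0.0067) did not differ beyond counting error. Of 9 monocyte and neutrophil markers 7 were examined, with 3 higher and 2 lower beyond counting error, a sum of 8.69 and 10.6 CPM, and Retnlg at 0 in both libraries. Of these, Mmp9 (54 and 10 counts, -2.08) and Ly6c2 (61 and 12 counts, -2.01) were lower and S100a9 (32 and 83 counts, 1.66) was higher. T cell markers were few and mixed, with a sum of 2.21 and 1.79 CPM, a median of 1.14 over 5 genes, Cd5 at 6 and 28 counts (2.42), Cd4 at 59 and 13 (-1.85) and Cd3d at 10 and 0. NK cell markers summed to 0.585 and 1.01 CPM. B cell markers summed to 3.25 and 2.74 CPM with a median of 0.19, or -0.11 with total counts, with none of 4 beyond counting error and Pax5 at 2 and 0 counts. Mast cell markers had a median of 0.078, or -0.23 with total counts, with none of 4 beyond counting error and a sum of 684 and 587 counts. Dendritic cell markers summed to 37.3 and 24.1 CPM with a median of -0.38, and 2 of 5 were lower beyond counting error. Most of that sum was Zbtb46 (1455 and 911 counts), whose own ratio is the median. Clec9a (401 and 305 counts) came next, and 77.1% of its exon length overlaps Clec1a on the opposite strand. The part of cell numbers in the leukocyte integrin values was not tested.

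Shares of the alpha chains within the beta2 family rest on few counts and are given without intervals. Per kilobase of exon, Itgam made up 60.0% of the alpha chain wild-type counts and 71.3% in Ucp1-KO, Itgal 20.9% and 13.4%, and Itgax 19.1% and 15.4%. The Itgam level per kilobase was 0.283 of that of Itgb2 (0.197 to 0.401) in wild-type and 0.632 (0.505 to 0.791) in Ucp1-KO. For Itgal the same ratio was 0.0986 (0.0590 to 0.158) and 0.119 (0.0814 to 0.169), and for Itgax 0.0901 (0.0482 to 0.157) and 0.136 (0.0907 to 0.199), with intervals that overlapped. Itgam was thus the alpha chain whose level relative to the shared beta chain differed beyond counting error.

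Alpha4 and alpha9 bind both cells and matrix and were kept apart. Itga4, which on leukocytes binds VCAM1 on vessel walls, had 810 and 922 counts, for a log2 ratio of 0.49 (0.29 to 0.68), which with total counts was 0.18 and within counting error. Of its exon length 20.8% overlaps Cerkl on the opposite strand. Itga9, known from the valves of lymphatic vessels, had 666 and 197 counts, for a log2 ratio of -1.46 (-1.80 to -1.13), with an interval wholly beyond 2-fold, which among lower members was otherwise seen only for Itgb6.

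Most matrix-binding integrin RNA was that of a few genes that hardly differed under median-of-ratios scaling. Itgb1, the beta chain shared by most matrix receptors, was the most abundant member per length, with 3578 normalised counts per kilobase in wild-type and 3394 in Ucp1-KO. It had 23700 and 18263 counts as deposited, for a log2 ratio of -0.076 (-0.12 to -0.037). Per kilobase the Itgb2 level was 0.0167 of the Itgb1 level (0.0137 to 0.0202) in wild-type and 0.0326 (0.0278 to 0.0381) in Ucp1-KO. Among all members Itgb2 ranked 18 by level per kilobase in wild-type and 14 in Ucp1-KO, and Itgam ranked 24 and 16.

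**Figure D3:**
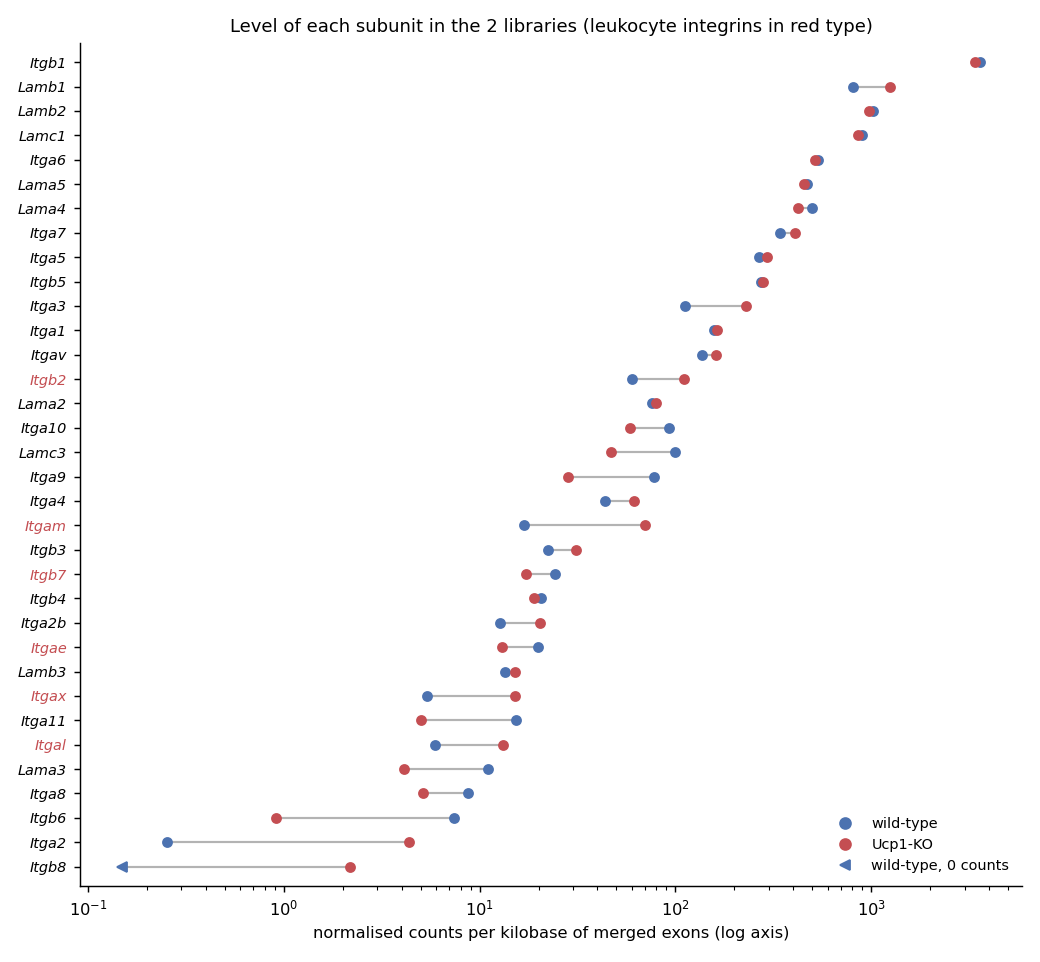
Normalised counts per kilobase of merged exons (log axis) of 34 members with a count, in the wild-type (blue) and the Ucp1-KO library (red); the arrowhead marks Itgb8, which had 0 counts in wild-type. Itgb1 stands alone at the top, the laminin chains Lamb1, Lamb2 and Lamc1 follow, and the leukocyte integrins (red type) stay at or below 111.

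Among the integrins that bind laminin, Itga6, which is broadly expressed and strong on vessel walls, had 6742 and 5302 counts, for a log2 ratio of -0.047 (-0.12 to 0.027). With total counts the Itga6 ratio was -0.35, near the shift of all genes (-0.31). Itga3 stood out in this group. It had 723 wild-type counts and 1200 in Ucp1-KO, for a log2 ratio of 1.03 (0.84 to 1.22), which total-count scaling lowered to 0.72. The Itga6 level per kilobase was 4.77 times that of Itga3 (4.28 to 5.33) in wild-type and 2.26 times (2.07 to 2.47) in Ucp1-KO. Itgb4, the partner of alpha6 in epithelia and Schwann cells, had 164 and 123 counts, for a log2 ratio of -0.11 (-0.62 to 0.38). Of 7 Schwann cell markers 4 were lower beyond counting error (Prx, 436 and 226 counts, -0.65) and 1 higher (Cdh19, 166 and 200 counts, 0.57), with a median of -0.51 and a sum of 201 and 110 CPM.

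Itga7 is the main laminin receptor of skeletal muscle fibres and is also made by other cells. Its counts were 3144 and 3052, for a log2 ratio of 0.26 (0.15 to 0.36), which total-count scaling turned to -0.050. The 12 skeletal muscle markers in the same libraries summed to 5382 CPM in wild-type and 593 CPM in Ucp1-KO, with log2 ratios from -3.92 (Pvalb) to -2.15 (Ttn). Itga7 therefore differed from Ttn by 2.41 on the log2 scale. Itgb1bp2 (melusin), a beta1-binding protein of striated muscle chosen after its value was seen, had 986 and 114 counts, for a log2 ratio of -2.81 (-3.23 to -2.42), within the range of the muscle markers.

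Collagen receptors diverged. Itga1 had 3709 and 3144 counts, for a log2 ratio of 0.061 (-0.037 to 0.16), and scaling to totals turned it to -0.25. Itga2, which lies near it on chromosome 13 and is known from platelets and epithelia, had only 2 wild-type counts and 28 in Ucp1-KO, for a log2 ratio of 3.78 with a wide interval of 1.39 to 9.51. Itga10, known from cartilage, had 532 and 275 counts (-0.65, -0.96 to -0.35), and 33.5% of its exon length is also exon of Gm42957 on the same strand. Itga11, a receptor of fibroblasts for fibrillar collagen, had 105 and 28 counts (-1.59, -2.57 to -0.74). Fibroblast and preadipocyte markers, beside it, had a median of -0.16 over 7 genes, none at least 2-fold away and none at 0, with a sum of 682 and 491 CPM; their part in the value was not tested.

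The alpha chains that bind RGD proteins were nearer to 0. Itga5, the fibronectin receptor chain, had 1573 and 1412 counts (0.14, -0.0048 to 0.29; -0.16 with total counts). Itgav, which joins several beta chains and can release active TGF-beta, had 1861 and 1791 counts (0.24, 0.11 to 0.38), and its sign turned with total counts (-0.063). Itga8 was lower, with 104 and 50 counts (-0.75, -1.51 to -0.042; -1.06 and so past 2-fold with total counts). Their beta partners split by abundance. Itgb5 had 2150 and 1786 counts (0.032, -0.098 to 0.16; -0.27 with total counts), whereas the rare Itgb6, an epithelial chain, had 60 and 6 (-2.93, -5.38 to -1.34). Itgb8 had 0 wild-type counts and 22 in Ucp1-KO, which is at least 4.51-fold higher when wild-type is set at the limit of 6 counts that a listed 0 allows and the Ucp1-KO count is taken without its own error. With that error the interval began at a log2 ratio of 1.63.

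Itga2b and Itgb3 together form the fibrinogen receptor of platelets. They had 116 and 150 counts (0.67, 0.16 to 1.19) and 164 and 185 counts (0.47, 0.029 to 0.92), both higher beyond counting error and both within it when counts were scaled to totals. Of 8 platelet and megakaryocyte markers 4 were examined, with 3 higher and 1 lower beyond counting error. Their median was 0.98, or 0.68 with total counts, and the 8 summed to 7.37 and 9.51 CPM. Pf4 (251 and 309 counts, 0.60) and Gp1ba (65 and 137 counts, 1.37) were among the higher ones. Gp5 (4 and 42 counts, 3.52) and Ppbp (48 and 10 counts, -1.92) were furthest from 0 and on opposite sides, Gp6 was at 0 in both libraries, and Gp9 and Treml1 were at 0 in Ucp1-KO. Their part in the 2 integrin values was not tested.

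Of the 11 laminin genes 10 were examined, with a median log2 ratio of -0.061, or -0.37 with total counts. None was at least 2-fold higher, against 7.42% of all genes, and 2 of the 10 were at least 2-fold lower, against 9.55%. Lama1, the alpha chain of the early embryo, was listed at 0 in both libraries.

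The alpha chains Lama4 and Lama5, both of vessel walls and Lama4 also of the adipocyte basement membrane, supplied most alpha chain RNA. Lama4 had 8720 and 6011 counts, for a log2 ratio of -0.24 (-0.30 to -0.17), and Lama5 had 5981 and 4686, for a log2 ratio of -0.052 (-0.13 to 0.026). Per kilobase the Lama4 level was 1.06 times that of Lama5 (1.01 to 1.11) in wild-type and 0.934 times (0.885 to 0.987) in Ucp1-KO. This small change of order rests on the merged exon lengths used (15715 and 11448 bases). In counts Lama4 was above Lama5 in both libraries. Lama2, the chain of muscle fibres and peripheral nerve, had 1504 and 1287 counts (0.075, -0.079 to 0.23; -0.23 with total counts), far from the muscle markers. Lama3, an epithelial chain, had 158 and 48 counts (-1.41, -2.14 to -0.74).

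Lamb1 was the one laminin gene that was higher beyond counting error. It lies on chromosome 12 from 31315030 to 31379658 on the plus strand of GRCm39 and had 9595 wild-type counts (9325 to 9870) and 12036 in Ucp1-KO (11734 to 12344). The log2 ratio was 0.63 (0.57 to 0.68), a 1.54-fold higher level, and 0.32 with total counts. Lamb2, the beta chain of mature vessels and of the nerve-muscle junction, had 6913 and 5350 counts, for a log2 ratio of -0.070 (-0.14 to 0.0031). The Lamb1 level per kilobase was 0.788 of the Lamb2 level (0.754 to 0.823) in wild-type and 1.28 times it (1.22 to 1.34) in Ucp1-KO. The more abundant beta chain by merged exon length (10726 bases for Lamb1, 6089 for Lamb2) was thus Lamb2 in wild-type and Lamb1 in Ucp1-KO. In counts Lamb1 was above Lamb2 in both libraries. The order in wild-type therefore rests on the lengths used, whose error the intervals do not hold. The change of the ratio between the libraries does not depend on them. Against the gamma chain Lamc1, Lamb1 went from 0.896 (0.862 to 0.931) to 1.45 (1.40 to 1.51).

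**Figure D4:**
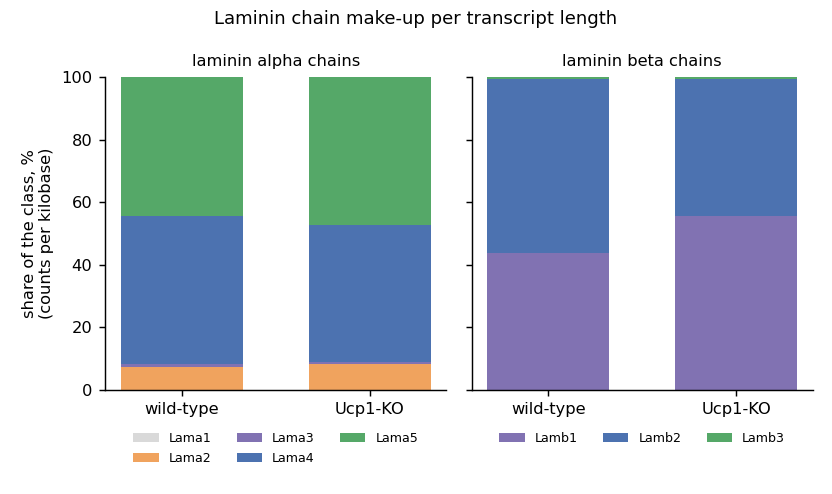
Share of each laminin alpha and beta chain gene in the normalised counts per kilobase of its chain class, in percent, for the wild-type and the Ucp1-KO library. The shares rest on exon lengths merged over all isoforms, and in counts Lamb1 is above Lamb2 in both libraries. Lama4 and Lama5 fill most of the alpha class in both libraries, and in the beta class Lamb1 makes up 43.7% in wild-type and 55.7% in Ucp1-KO; Lama1 has 0 counts and does not show.

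Of the gamma chains, Lamc1 held 88.8% of the gamma chain level per kilobase in wild-type and 93.0% in Ucp1-KO. Its counts were 11304 and 8740, for a log2 ratio of -0.071 (-0.13 to -0.014). Lamc3 had 1037 and 397 counts, for a log2 ratio of -1.08 (-1.33 to -0.85), and it was the most counted member among the 5 that were at least 2-fold lower. Lama3 and Lamb3 are chains of a laminin that anchors the epidermis, and they did not differ alike. Lamb3 had 123 and 112 counts (0.16, -0.38 to 0.71; -0.14 with total counts), not beyond counting error, unlike Lama3. The epithelial markers Krt5, Krt14, Krt8 and Epcam were at 0 in both libraries and Krt18 had 8 and 0 counts.

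Endothelial and mural cells make much of the laminin of a fat depot, so their markers were set beside these values. The 12 endothelial markers had a median log2 ratio of -0.87, 11 of them lower beyond counting error (Emcn -1.39, Vwf -1.05), with a sum of 2601 CPM in wild-type and 1282 CPM in Ucp1-KO. The 9 pericyte and smooth muscle markers had a median of -0.70 (Acta2 -1.02), except that Cnn1 was higher (1.85), with a sum of 591 and 323 CPM. No marker of either list was at 0. The chains Lama4, Lama5, Lamb2 and Lamc1, between -0.24 and -0.052, lay nearer to 0 than these medians, while Lamb1 (0.63) lay above 0. With total counts Lama4, Lama5, Lamb2 and Lamc1 were -0.54, -0.36, -0.38 and -0.38, and Lamb1 was 0.32. The medians were then -1.17 (endothelial) and -1.01 (pericyte and smooth muscle). The part of vessel content in the laminin values was not tested.

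Other components of the basement membrane were mostly lower. Of 12 partners of laminin 9 were lower and 2 higher beyond counting error, beside 30.5% and 31.5% of all genes, with a median of -0.31. The laminin receptor and blood group antigen Bcam (4622 and 1737 counts, -1.11) was the only one at least 2-fold away, followed by Col15a1 (4753 and 2162 counts, -0.84), the laminin-binding nidogen Nid2 (1729 and 879 counts, -0.68) and perlecan, Hspg2 (37967 and 21878 counts, -0.50). Lamb1 thus stood above 0 where most of the sheet it is built into stood below.

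Proteins that couple integrins to actin were mostly a little below 0. The 24 adaptors had a median of -0.14, or -0.45 with total counts, with 7 above 0 and 17 below. Beyond counting error 6 were higher and 10 lower, beside 31.5% and 30.5% of all genes, and 1 was at least 2-fold higher. That gene was Ptk2b, a calcium-sensitive relative of focal adhesion kinase, with 1275 and 4534 counts (2.13, 2.00 to 2.26), while focal adhesion kinase itself, Ptk2, had 2517 and 1808 (-0.18). The kindlin of blood cells, Fermt3, which activates beta2 integrins, had 148 and 184 counts (0.61, 0.16 to 1.08), whereas the broadly expressed kindlin Fermt2 had 12195 and 9754 (-0.023). Fermt1 (28 and 12 counts, -0.90), Tln2 (2002 and 1020 counts, -0.67) and Fermt3 followed Ptk2b in size with Lims2 (8639 and 4636 counts, -0.60) next.

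The ligands of the 2 integrin classes were examined last. Of 10 ligands of leukocyte integrins 8 were examined, with a median of -0.35. Beyond counting error 4 were higher and 4 lower, beside 31.5% and 30.5% of all genes. Icam1, bound by alphaL and alphaM, had 524 and 688 counts (0.69, 0.46 to 0.93) and Vcam1 463 and 477 (0.34, 0.076 to 0.61), while Icam4 (22 and 2 counts, -2.90), Jam3 (1130 and 389 counts, -1.24), Icam2 (1669 and 741 counts, -0.87) and Jam2 (10098 and 4693 counts, -0.81) were lower. Of 12 matrix ligands 11 were examined, 6 higher and 2 lower beyond counting error, beside the same shares of all genes. Their median was 0.28, which total-count scaling turned to -0.023. Osteopontin, Spp1, a ligand of alphaV and alpha4 integrins that macrophages secrete, had 24 and 118 counts (2.57, 1.69 to 3.63). Thrombospondin, Thbs1 (964 and 2771 counts, 1.82), and tenascin, Tnc (940 and 2024 counts, 1.41), were also at least 2-fold higher, Ltbp1 had 837 and 353 counts (-0.95), and fibronectin, Fn1, had 3495 and 3457 (0.28, 0.19 to 0.38; -0.023 with total counts).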

How the data were processed

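Total RNA of iBAT was made into strand-specific poly-A libraries. Per the labels and the study's methods, the authors trimmed reads with Trim Galore, aligned them to mm39 (GRCm39) with HISAT2 and deposited raw counts per gene from featureCounts; the annotation, strand setting and treatment of multi-mapping reads are not given in the sources used here, so counts of overlapping, antisense and near-identical genes are uncertain. Genes are listed by Entrez identifier (1319 without a symbol, kept).

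Counts were scaled with DESeq2 1.42.0 size factors (1.11 wild-type, 0.901 Ucp1-KO). Low counts were mostly even (70.7% and 73.4% of genes with 1 to 10 counts), as when both mates of a pair are counted, so exact Clopper-Pearson and Poisson intervals were computed on counts divided by 2, and a listed 0 allows 3 pairs (6 counts). These hold counting error alone: the libraries carried no molecular identifiers, so PCR copies may count as separate reads. No p-value can be had from 1 library per genotype. Exon lengths (merged over all isoforms) and positions are those of GENCODE M39, joined by symbol. Methods were tested on simulated data.

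Groups, members and lists were chosen with earlier results of these data known. All members were to be named, with up to 4 genes of the largest log2 ratio per pathway list plus Fermt3, Icam1, Vcam1 and Fn1, up to 2 per marker list and markers at 0; other genes named were chosen after their values were seen, and 2 genes under that rule, 1 of them a member, are not reported here, though counts and medians include them. Alternatives were TMM factors (edgeR 4.0.16), total counts, other filters, pseudocounts, size rules and groupings.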

Additional observations from a re-analysis of the deposited data

How the results depend on the processing

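No paired analysis was possible because the genotypes have a single library each, which also means that none could be left out. Of 45 alternative values for the main counts and medians, 37 were the same within counting error, or for counts within 1.5 times. A minimum mean count of 50, a log2 ratio of 1.5 and an interval wholly beyond 2-fold each left 3 members higher, and the last 2 left 2 lower. These rules keep fewer genes by construction, and their shares over all genes were not computed. With total counts the matrix-binding median was -0.25 and the laminin median -0.37, near the shift of all genes, and the ratio of summed laminin counts was 0.071, where abundant Lamb1 weighs more. Signs turned with total counts for Itga7 (-0.050) and Itgav (-0.063), whose intervals lay above 0, for Itga1 (-0.25), Itga5 (-0.16), Itgb5 (-0.27), Lama2 (-0.23) and Lamb3 (-0.14), whose intervals held 0, and for the medians of the matrix-binding integrins, the matrix ligands (-0.023) and the macrophage, B cell and mast cell markers. Medians of the ligand, adaptor, basement membrane and marker lists under other scalings were alternatives chosen after seeing the data. The difference between leukocyte and matrix-binding medians lay between 0.84 and 1.16. Other size factors could hardly move it, because they shift both medians nearly alike. Beyond counting error 14 members were higher and 12 lower on counts as deposited, against 36.5% and 35.8% of all genes. With TMM factors they were 13 and 12, against 30.7% and 31.3%. With total counts they were 8 and 19, against 14.4% and 53.9%, and the calls of Itga2b, Itga4, Itga7, Itgav and Itgb3 as higher were lost. Depth limits Itga2, Itgb8, Itgb6 and Itgax, whose intervals are wide. Length changes only levels compared between genes, such as the order of Lamb1 and Lamb2 in wild-type and of Lama4 and Lama5 in Ucp1-KO.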
